A study of Mus musculus with 20 samples.

Results

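The genes described here are 9 members of the fibroblast growth factor (FGF) system, taken by symbol: the ligands Fgf4, Fgf5, Fgf8, Fgf15 and Fgf17, and the receptors Fgfr1, Fgfr2, Fgfr3 and Fgfr4. They are 9 of the 23361 genes in the deposited tables, and all 9 passed the filter on low counts in every fit. They were followed by mRNA sequencing in mouse embryonic stem cells that were converted in culture to epiblast stem cells, the primed counterpart of the naive state. Of the 20 libraries, 10 came from PGK, a female line, and 10 from E14, a male line. Each line was sampled at day 0 in 2i medium and, after transfer to medium with activin A and Fgf2 protein on fibronectin, at day 4, day 10, days 19 to 23 and days 27 to 30. Each of these 10 groups holds 2 libraries, one from each of the experiments named diff2 and diff3. The labels give no genetic change for either line, and each sex is represented by 1 line, so line and sex cannot be told apart. The labels do not say that the libraries of a group came from separate starting cultures, so p-values measure the spread between these libraries only.

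FGF ligands are secreted proteins that bind FGF receptors, which are receptor tyrosine kinases, together with heparan sulfate on the cell surface. The receptors signal through the RAS, RAF, MEK and ERK chain, and ERK activity raises transcripts of feedback inhibitors such as the Sprouty and Dusp genes. Fgf4 is the main FGF made by naive embryonic stem cells, Fgf5 is a classical marker of the postimplantation epiblast, and Fgf8 is known from the primitive streak. 2i medium inhibits MEK and GSK3, so the step from MEK to ERK is blocked at day 0 by design.

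Library totals were 2020254 to 26936415 counts. The shallowest were the E14 diff3 libraries of day 4 (2020254 counts) and day 0 (3376500 counts). There the limit that a count of 0 allows, 3 counts, corresponds to 1.48 and 0.888 CPM (counts divided by the library total, times 1e6), against 0.111 to 0.253 CPM in the other libraries. Such limits cover counting error only. The PGK diff3 library of days 27 to 30, with 21198258 counts, held 0 counts of Fgf17, Fgf11 and Fgf21. Its diff2 pair held 48, 18 and 31. Fgf1 and Fgf16 went the other way, at 66 and 24 counts against 37 and 17. A count of 0 in that library is thus not shown to be a level under its limit of 0.142 CPM. The pair of E14 day 0 libraries had the lowest correlation of log2(CPM + 1) of the 10 pairs (r = 0.912 across genes, which are not independent, against 0.964 to 0.992 for the others). The diff2 libraries of days 0, 4 and 10 carry a code in their titles that no other library has, so within diff2 the code separates these stages from the later ones. The day 0 libraries of diff3 carry a cell type label that names both states although their titles give 2i. Against marker genes, 12 of 12 naive pluripotency markers were lower at days 27 to 30 than at day 0 in PGK and 10 of 11 tested in E14. Of the primed epiblast markers, 10 of 12 in PGK and 9 of 12 in E14 were higher. Of all genes tested, 12% in PGK and 4.99% in E14 were lower in this comparison, and 13% and 8.73% higher.

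The promoters of Fgf4, Fgf5 and Fgfr2 are shown because Fgf4 and Fgf5 were the ligands with the highest levels per length, one at day 0 and one from day 4 on, and Fgfr2 had the second largest share of the receptor level at days 27 to 30. They are the RefSeq entries on GRCm38.p6, from 250 bases before to 50 after the annotated start, and 5 of the 9 genes matched an entry (Fgf4, Fgf5, Fgfr2, Fgfr3 and Fgfr4). Capitals mark matches on either strand to the GC box GGGCGG, to TATAAA, to CCAAT and to the ETS core CGGAAG.
Fgf4 promoter (chr7:144861136-144861435, plus strand): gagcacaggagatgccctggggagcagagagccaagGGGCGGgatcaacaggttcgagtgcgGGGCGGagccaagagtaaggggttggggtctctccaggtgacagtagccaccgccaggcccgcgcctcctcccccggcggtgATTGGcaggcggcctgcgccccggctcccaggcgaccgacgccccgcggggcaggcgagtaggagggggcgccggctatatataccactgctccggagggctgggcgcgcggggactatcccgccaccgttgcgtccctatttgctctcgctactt
Fgf5 promoter (chr5:98253934-98254233, plus strand): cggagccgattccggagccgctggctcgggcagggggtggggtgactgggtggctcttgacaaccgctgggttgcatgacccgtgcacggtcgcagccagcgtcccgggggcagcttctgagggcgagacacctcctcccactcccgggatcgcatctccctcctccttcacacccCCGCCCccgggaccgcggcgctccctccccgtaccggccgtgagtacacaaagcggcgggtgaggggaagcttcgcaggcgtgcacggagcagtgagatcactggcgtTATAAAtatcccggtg
Fgfr2 promoter (chr7:130266759-130267058, minus strand): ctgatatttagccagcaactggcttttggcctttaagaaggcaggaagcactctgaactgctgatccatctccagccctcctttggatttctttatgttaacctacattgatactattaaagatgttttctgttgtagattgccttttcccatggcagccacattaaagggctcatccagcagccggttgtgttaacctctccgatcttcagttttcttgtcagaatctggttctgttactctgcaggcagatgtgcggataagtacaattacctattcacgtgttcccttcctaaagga
The Fgf4 window holds 28 CG dinucleotides, 2 GC boxes and 1 CCAAT match. The Fgf5 window holds 29 CG dinucleotides, 1 GC box and 1 TATAAA match. The Fgfr2 window holds 4 CG dinucleotides and no match to any of the 4 motifs. Over 32841 promoters of this length the median is 7 CG dinucleotides, and 35.7% hold GGGCGG, 37.4% CCAAT, 13.6% TATAAA and 16.9% CGGAAG. These matches describe letters in the windows and were not tested against the expression values.

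Fgf4, the autocrine ligand of naive cells, fell in both lines. In PGK it had 355 and 247 CPM at day 0 (diff2 first, then diff3, here and below), 154 and 25.2 at day 4, 34.5 and 20.0 at day 10, 18.5 and 16.5 at days 19 to 23, and 19.8 and 26.6 at days 27 to 30. In E14 it had 295 and 343 CPM at day 0, 55.7 and 33.2 at day 4, 15.5 and 17.3 at day 10, 11.1 and 7.10 at days 19 to 23, and 18.4 and 14.5 at days 27 to 30. In each line both day 0 libraries lay above every later library.

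Between day 0 and days 27 to 30 Fgf4 changed by −3.78 on the log2 scale in PGK (SE 0.69, adjusted p = 0.00327) and by −4.28 in E14 (SE 0.43, adjusted p = 0.000352). Log2 fold changes and adjusted p-values are from edgeR's quasi-likelihood test with Benjamini-Hochberg adjustment over all genes tested. At day 4 against day 0, Fgf4 fell in E14 (log2 fold change −2.80, SE 0.41, adjusted p = 0.00229), while in PGK the value of −1.82 (SE 0.63) did not pass (adjusted p = 0.0832). The PGK day 4 libraries stood apart, with 154 CPM in diff2 and 25.2 in diff3. With the experiment as a block the PGK value was −2.03 and passed (adjusted p = 0.041), and without the day 4 library of diff2 it was −3.58 (adjusted p = 0.000575). Leaving out a library, here and below, leaves its group with 1 library, which is assumed to vary like the other groups. The same diff2 library held more summed naive marker transcript than diff3 (453 against 245 CPM) and less primitive streak transcript (138 against 969 CPM), and the part of these in the Fgf4 value was not tested. Pooled over both lines, Fgf4 was lower at days 10 to 30 than at day 4 (−1.89, SE 0.29, adjusted p = 0.000495).

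Fgf5, the marker ligand of the postimplantation epiblast, rose in both lines. The PGK libraries had 0.325 and 0.0935 CPM at day 0, 133 and 203 at day 4, 301 and 438 at day 10, 373 and 331 at days 19 to 23, and 327 and 352 at days 27 to 30. The E14 libraries had 1.34 and 0 CPM at day 0, 135 and 95.5 at day 4, 239 and 279 at day 10, 304 and 380 at days 19 to 23, and 411 and 252 at days 27 to 30. The day 0 libraries held 6 counts of Fgf5 in all in PGK and 18 in E14, and no later library of either line overlapped them.

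Fgf5 was higher at day 4 than at day 0 by 9.74 on the log2 scale in PGK (SE 0.49, adjusted p = 8.28e-06) and by 6.93 in E14 (SE 0.70, adjusted p = 0.000546). Its changes at days 27 to 30 against day 0 were 10.74 in PGK (SE 0.50, adjusted p = 3.78e-06) and 8.42 in E14 (SE 0.73, adjusted p = 0.000188). A smaller second increase, of 1.22 (SE 0.26, adjusted p = 0.00594), separated days 10 to 30 from day 4 over both lines. It was 1.07 with an adjusted p of 0.0603 when the PGK day 4 library of diff2 was left out.

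Fgf8, a ligand of the primitive streak and later of several embryonic signalling centres, also rose in both lines. In PGK it had 1.06 and 0.327 CPM at day 0, 15.4 and 26.6 at day 4, 59.9 and 76.3 at day 10, 47.5 and 70.8 at days 19 to 23, and 33.1 and 42.7 at days 27 to 30. In E14 it had 0.149 and 0 CPM at day 0, 10.5 and 3.46 at day 4, 14 and 46.4 at day 10, 37.0 and 17.4 at days 19 to 23, and 48.5 and 25.0 at days 27 to 30. Day 0 lay below all later stages in both lines, and at day 10 and days 27 to 30 the E14 libraries lay farther apart than those of PGK.

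In PGK, Fgf8 was higher by 4.96 on the log2 scale at day 4 than at day 0 (SE 0.55, adjusted p = 0.000325) and by 5.80 at days 27 to 30 (SE 0.57, adjusted p = 0.000108). In E14 the day 0 libraries held only 2 counts, so the change is given as a ratio with its 95% counting interval. That ratio was 80.1 at day 4 (21.8 to 668, adjusted p = 0.0133 in edgeR) and 300 at days 27 to 30 (82.9 to 2480, adjusted p = 0.0024). The day 4 call in E14 was lost without the day 4 library of diff2 (adjusted p = 0.0898) and without both shallow E14 libraries (adjusted p = 0.0546).

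From day 4 to days 10 to 30 Fgf8 rose further over both lines (log2 fold change 1.69, SE 0.42, adjusted p = 0.0164). The call was lost without the PGK day 4 library of diff2 (1.50, adjusted p = 0.114) or the E14 day 4 library of diff3 (1.45, adjusted p = 0.0711). Of 11 primitive streak markers tested, 5 rose in the same comparison and none fell, where 6.14% of 15732 genes were higher and 4.98% lower. Other marker lists moved too, with 9 of 9 definitive endoderm and 5 of 10 fibroblast and feeder markers higher. Of 7 neuroectoderm markers 0 were higher and 1 lower. The summed level of the streak markers, with 12 genes in the list, was 249 to 1288 CPM in the libraries of days 10 to 30. At day 4 it was 30.7 to 969 CPM. At day 10 the E14 library with less Fgf8 (14 CPM) had 249 CPM of these markers and the one with more (46.4 CPM) had 790. At days 19 to 23 in E14 the order was the other way, with 918 CPM of the markers where Fgf8 was 37.0 CPM and 1090 where it was 17.4. In every other group from day 4 on, in both lines, the library with more Fgf8 also had more of these markers. The part of streak-like cells in the Fgf8 level was not tested, and in bulk RNA more cells of a type and more RNA per cell cannot be told apart.

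Fgf15, the mouse counterpart of human FGF19 and a gene of the early neural tube, rose from day 0 in both lines and stood highest or second highest at day 4 in each experiment. The PGK libraries had 1.95 and 0.421 CPM at day 0, 49.7 and 15.6 at day 4, 15.0 and 9.39 at day 10, 15.3 and 12.6 at days 19 to 23, and 17.1 and 17.1 at days 27 to 30. The E14 libraries had 0.224 and 0 CPM at day 0, 41.9 and 36.6 at day 4, 2.16 and 21.1 at day 10, 12.5 and 3.37 at days 19 to 23, and 20.8 and 41.2 at days 27 to 30. Every later library lay above both day 0 libraries of its line, and both day 4 libraries lay above both day 10 libraries in each line.

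Fgf15 rose in PGK by 4.77 on the log2 scale at day 4 against day 0 (SE 0.79, adjusted p = 0.00296) and by 3.83 at days 27 to 30 (SE 0.76, adjusted p = 0.00526). In E14, with 3 counts at day 0 in all, the ratio was 231 at day 4 (95% counting interval 78.5 to 1120, adjusted p = 0.00903) and 178 at days 27 to 30 (60.9 to 865, adjusted p = 0.00881). Without both shallow E14 libraries these E14 values did not pass (adjusted p = 0.083 at day 4 and 0.0518 at days 27 to 30). The lower level of Fgf15 at days 10 to 30 than at day 4 over both lines (−1.34, SE 0.49) did not pass (adjusted p = 0.0882), but without the E14 day 10 library of diff3 it did (−1.76, adjusted p = 0.013). Summed neuroectoderm markers in the E14 libraries of days 19 to 23 were 282 CPM where Fgf15 was 12.5 and 93.3 CPM where it was 3.37. At day 4 the order was the other way, with 223 CPM of these markers where Fgf15 was 49.7 and 640 where it was 15.6 in PGK, and with 335 where it was 41.9 and 508 where it was 36.6 in E14. At day 10 in both lines, at days 19 to 23 in PGK and at days 27 to 30 in E14, the library with more Fgf15 also had more of these markers. In PGK at days 27 to 30 Fgf15 was 17.1 CPM in both libraries. The part of these markers in the Fgf15 level was not tested. Fgf15 overlaps 2 annotated antisense genes, Gm26793 and Gm39119, and whether strand was used in counting is not given in the sources used here.

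Fgf17, a ligand of the Fgf8 subfamily, passed no test. In PGK it had 3.49 and 0.187 CPM at day 0, 5.54 and 3.61 at day 4, 1.94 and 1.89 at day 10, 4.22 and 2.68 at days 19 to 23, and 2.01 and 0 at days 27 to 30. In E14 it had 7.98 and 9.18 CPM at day 0, 2.06 and 0 at day 4, 2.41 and 12.9 at day 10, 2.82 and 1.18 at days 19 to 23, and 2.98 and 4.68 at days 27 to 30. In PGK day 4 lay just above both day 0 libraries and the other stages overlapped day 0, and in E14 both day 0 libraries lay above all later ones except the day 10 library of diff3. At day 4 against day 0 the log2 fold change was 1.27 in PGK (SE 1.57, adjusted p = 0.648) and −2.74 in E14 (SE 1.32, adjusted p = 0.229).

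**Figure D1:**
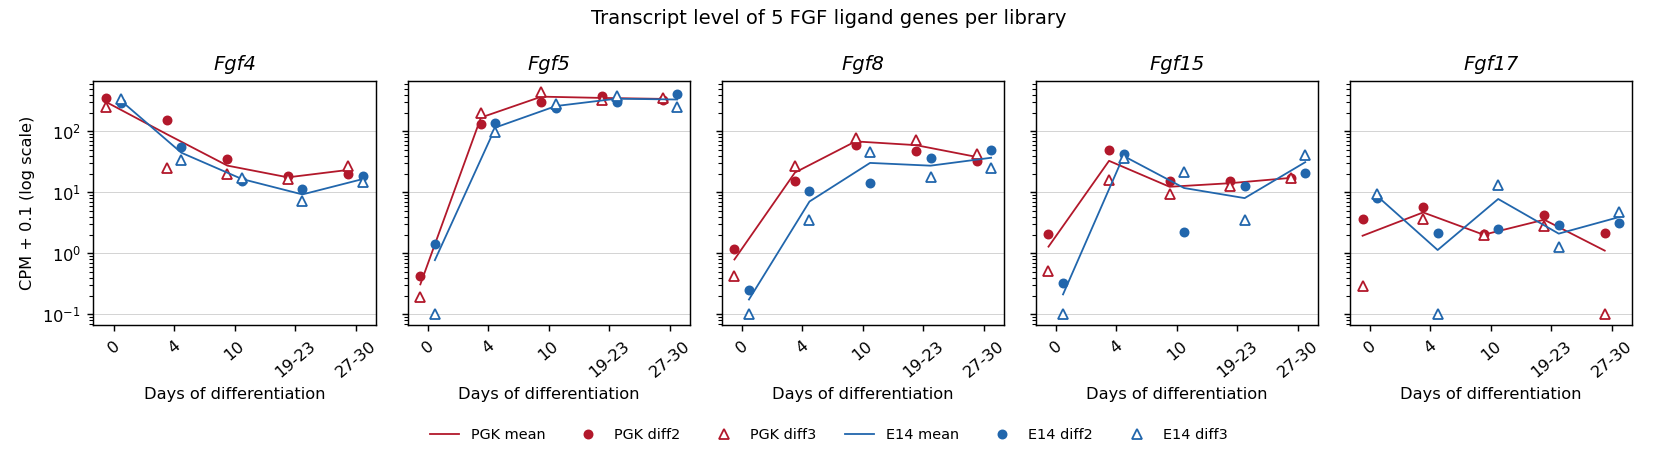
CPM + 0.1 on a log axis against the day of differentiation for Fgf4, Fgf5, Fgf8, Fgf15 and Fgf17. Circles are diff2 libraries, triangles diff3 libraries and lines the means of 2 libraries, with PGK in red and E14 in blue. Fgf4 is high at day 0 in both lines, at 247 to 355 CPM, while Fgf5, Fgf8 and Fgf15 lie at 0 to 1.95 CPM there and above 2 CPM in every later library.

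Per length, the order of the ligands turned over between day 0 and day 4. At day 0 Fgf4 stood first, with 94.3 ± 23.9 CPM per kilobase of exon in PGK and 99.8 ± 10.5 in E14 (SD, n = 2 each). Of the 5 ligands the next was Fgf17, with 1.09 ± 1.38 in PGK and 5.08 ± 0.502 in E14, while Fgf10, a ligand outside these 5, had 2.90 ± 2.15 in PGK and 2.73 ± 2.42 in E14. By days 27 to 30 Fgf5 stood first, with 136 ± 6.94 CPM per kilobase in PGK and 133 ± 45.0 in E14, and Fgf8 was second, with 28.1 ± 5.05 and 27.2 ± 12.3. Fgf4 had 7.26 ± 1.49 and Fgf15 5.59 ± 0.0132 in PGK, and 5.14 ± 0.866 and 10.1 ± 4.71 in E14, and Fgf10 had 6.48 ± 0.691 in PGK and 7.76 ± 4.2 in E14. Over the longest transcript Fgf4 had 7.65 and Fgf15 9.45 in PGK, so their order in PGK depends on the length used. At day 4 Fgf5 already stood first, with 67.1 ± 19.9 CPM per kilobase in PGK, where Fgf4 had 28.0 ± 28.4, and with 46.1 ± 11.2 in E14, where Fgf4 had 13.9 ± 4.98.

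Fgf4 (chr7:144847367-144865243) and Fgf15 (chr7:144896531-144900953) are neighbours on the plus strand of GRCm38 in GENCODE, with a gap of 31.3 kb, yet Fgf4 fell and Fgf15 rose. In GENCODE, Fgf3, another ligand gene, ends 2.9 kb before the Fgf4 model. That model begins before the RefSeq promoter window printed above, so the distance depends on the annotation. Fgf3 had 0.209 and 0 CPM at days 27 to 30 against 4.22 and 1.78 at day 0 in PGK, and 0.192 and 0 against 2.76 and 10.7 in E14. It was called lower in E14 (adjusted p = 0.0482) and did not pass in PGK (adjusted p = 0.106).

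Fgfr1, the main receptor of embryonic stem cells, had the highest level per length of the 4 receptors in every library. The PGK libraries had 217 and 174 CPM at day 0, 273 and 230 at day 4, 292 and 178 at day 10, 222 and 232 at days 19 to 23, and 233 and 250 at days 27 to 30. The E14 libraries had 95.9 and 17.5 CPM at day 0, 171 and 138 at day 4, 364 and 299 at day 10, 181 and 132 at days 19 to 23, and 144 and 251 at days 27 to 30. In PGK only the day 10 libraries overlapped those of day 0, and in E14 both day 0 libraries lay below all later ones.

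Fgfr1 did not pass a test within PGK, where days 27 to 30 against day 0 gave 0.23 on the log2 scale (SE 0.24, adjusted p = 0.524). In E14 the same comparison gave 1.73 (SE 0.63) and did not pass either (adjusted p = 0.0953). It was 2.48 with a term for the library code (adjusted p = 0.0379) and 1.81 in DESeq2 (adjusted p = 0.032). Without the day 0 library of diff2 it was 3.54 (adjusted p = 0.000876), but day 0 is then the shallow diff3 library alone, which held 59 counts of Fgfr1 and has no replicate. Fgfr1 lies at chr8:25513654-25575718 on GRCm38 and overlaps the antisense gene Gm16159.

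Fgfr2 rose in E14. It had 2.69 and 0 CPM at day 0, 4.12 and 5.94 at day 4, 60.4 and 30.1 at day 10, 56.2 and 99.6 at days 19 to 23, and 31.8 and 35.2 at days 27 to 30 in that line. In PGK it had 1.54 and 7.34 CPM at day 0, 31.3 and 8.36 at day 4, 14 and 35.7 at day 10, 34.6 and 17.8 at days 19 to 23, and 29.6 and 12.3 at days 27 to 30. All later E14 libraries lay above day 0, with a step between day 4 and day 10 in both experiments. In PGK all later libraries also lay above both day 0 libraries, by little in diff3 at day 4 (8.36 CPM, against 7.34 at day 0).

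At days 27 to 30 against day 0 Fgfr2 was higher by 4.32 on the log2 scale in E14 (SE 0.93, adjusted p = 0.0135). In PGK the value of 2.13 (SE 0.86) did not pass (adjusted p = 0.098). It passed without the day 0 library of diff3 (3.69, adjusted p = 0.0403) and in DESeq2 (2.11, adjusted p = 0.0317). Over both lines days 10 to 30 against day 4 gave 1.78 (SE 0.57, adjusted p = 0.0536). The GENCODE model of Fgfr2 extends to chr7:130162451-133123350 and overlaps 69 other genes, while RefSeq places its start inside the promoter window printed above, so its counts and its length depend on the annotation used, which is not given.

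Fgfr3 rose in both lines and stayed low. It had 0.244 and 0.234 CPM at day 0, 1.05 and 1.42 at day 4, 4.47 and 1.50 at day 10, 3.90 and 2.32 at days 19 to 23, and 2.18 and 3.68 at days 27 to 30 in PGK. In E14 it had 0.298 and 0 CPM at day 0, 0.515 and 0.495 at day 4, 3.24 and 2.70 at day 10, 5.75 and 4.34 at days 19 to 23, and 3.85 and 7.12 at days 27 to 30. No later library overlapped day 0 within a line. In E14, however, the 0 counts of diff3 at day 0 allow up to 0.888 CPM. That lies above both day 4 levels, so a separation at day 4 is not shown in E14.

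Fgfr3 was higher at days 27 to 30 than at day 0 in PGK (log2 fold change 3.51, SE 1.01, adjusted p = 0.0289) and in E14 (4.68, SE 1.26, adjusted p = 0.034). The day 0 groups held 8 counts in PGK and 4 in E14. The PGK call was lost without either day 0 library (adjusted p = 0.111 without diff2 and 0.102 without diff3) and without the days 27 to 30 library of diff3 (0.0821). The E14 call was lost without either library of days 27 to 30 (0.117 without diff2 and 0.189 without diff3) and with the experiment as a block (0.0531). Over both lines days 10 to 30 exceeded day 4 by 2.15 (SE 0.62, adjusted p = 0.0346), and with the block the adjusted p was 0.0583.

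Fgfr4 was the only receptor with a negative fold change at days 27 to 30 against day 0 in both lines, and it passed in neither. The PGK libraries had 11.5 and 2.20 CPM at day 0, 3.93 and 0.137 at day 4, 0.506 and 0.686 at day 10, 0.256 and 0.680 at days 19 to 23, and 0.377 and 0 at days 27 to 30. The E14 libraries had 4.10 and 0 CPM at day 0, 1.47 and 0 at day 4, 0.665 and 1.41 at day 10, 0.557 and 3.42 at days 19 to 23, and 0.385 and 0.651 at days 27 to 30. The PGK day 0 libraries lay above every library from day 10 on, whereas the E14 stages overlapped. The PGK value was −5.19 (SE 1.85, adjusted p = 0.0652), and it passed with the experiment as a block (−5.34, adjusted p = 0.0374). At days 27 to 30 it rests on 9 and 0 counts, the 0 in the diff3 library that also lacked Fgf17.

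**Figure D2:**
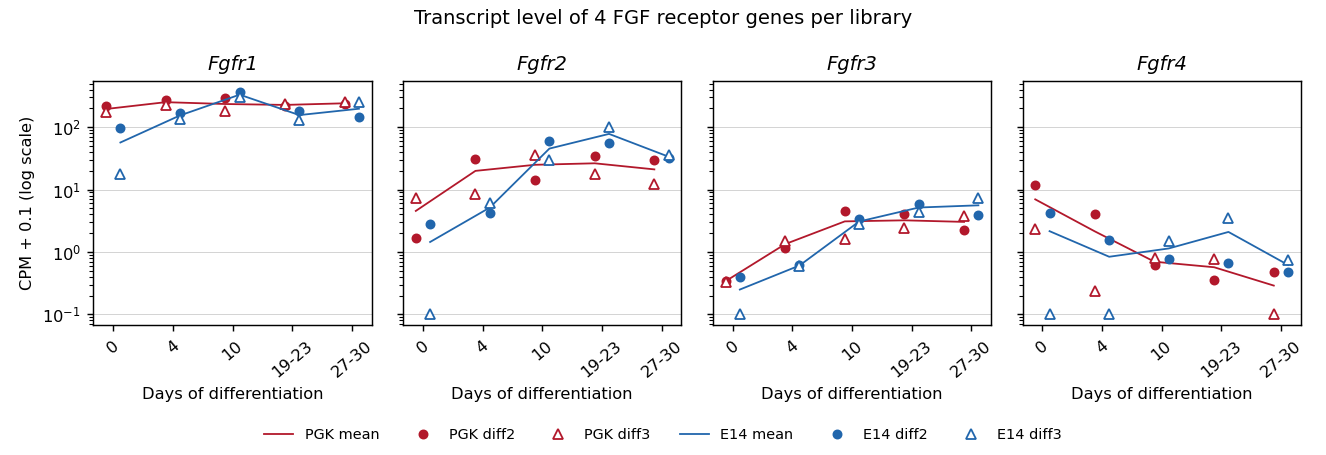
CPM + 0.1 on a log axis against the day of differentiation for Fgfr1, Fgfr2, Fgfr3 and Fgfr4, with PGK in red and E14 in blue, circles for diff2, triangles for diff3 and lines for means of 2 libraries. Fgfr1 stays at 174 to 292 CPM in PGK and lies at 17.5 and 95.9 CPM at day 0 in E14, and Fgfr2 and Fgfr3 are higher late than at day 0.

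Per length, Fgfr1 made up most of the summed receptor level. As a share of the CPM per kilobase of all 4 receptors it was 89.6 ± 4.47% at day 0, 91.1 ± 6.46% at day 4, 87.8 ± 7.70% at day 10, 88.2 ± 4.44% at days 19 to 23 and 90.7 ± 4.17% at days 27 to 30 in PGK (SD, n = 2 each). In E14 it was 93.5 ± 9.24%, 95.4 ± 0.326%, 87.1 ± 2.90%, 64.2 ± 14% and 82.2 ± 3.57% at the same stages. The shallow E14 diff3 library of day 0 held 59 counts of Fgfr1 and 0 of Fgfr2, Fgfr3 and Fgfr4. Its shares of 100% for Fgfr1 and 0% for Fgfr4, against 86.9% and 10.4% in diff2, rest on these few counts. In diff2 Fgfr2 had 2.69 CPM and Fgfr4 4.10, above the 0.888 CPM that 0 counts allow in diff3. Fgfr1 had 95.9 CPM in diff2 and 17.5 in diff3. What set these libraries apart was not tested. The lowest Fgfr1 shares, 74.1% and 54.3%, were those of E14 at days 19 to 23. There Fgfr2 had 22.1% and 39.3%, against 16.8% and 11.4% at days 27 to 30. The Fgfr4 share at day 0 was 8.03 ± 6.73% in PGK and 5.18 ± 7.33% in E14, and 0.198 ± 0.280% and 0.603 ± 0.0146% at days 27 to 30. Over the length of the longest transcript these shares were lower, at 4.59% and 2.95% at day 0 and 0.106% and 0.322% at days 27 to 30. Definitive endoderm markers were high in the same E14 libraries of days 19 to 23, at 1591 and 2149 CPM summed over 9 genes, against 1259 and 1121 at days 27 to 30, and their part in the Fgfr2 share was not tested. In PGK these markers were at 1111 and 1741 CPM at day 10, with Fgfr2 shares of 4.28% and 15.8%. At days 19 to 23 they were at 1300 and 1271 CPM, with shares of 12.7% and 6.70%. The library with the larger Fgfr2 share had fewer of these markers at day 0 in both lines, in E14 at day 10 and in PGK at days 27 to 30. In the other groups it had more. At day 10 in E14 the Fgfr2 share was 13.5% with 264 CPM of these markers and 8.58% with 806, and at days 27 to 30 in PGK it was 10.7% with 1026 CPM and 4.40% with 1275.

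**Figure D3:**
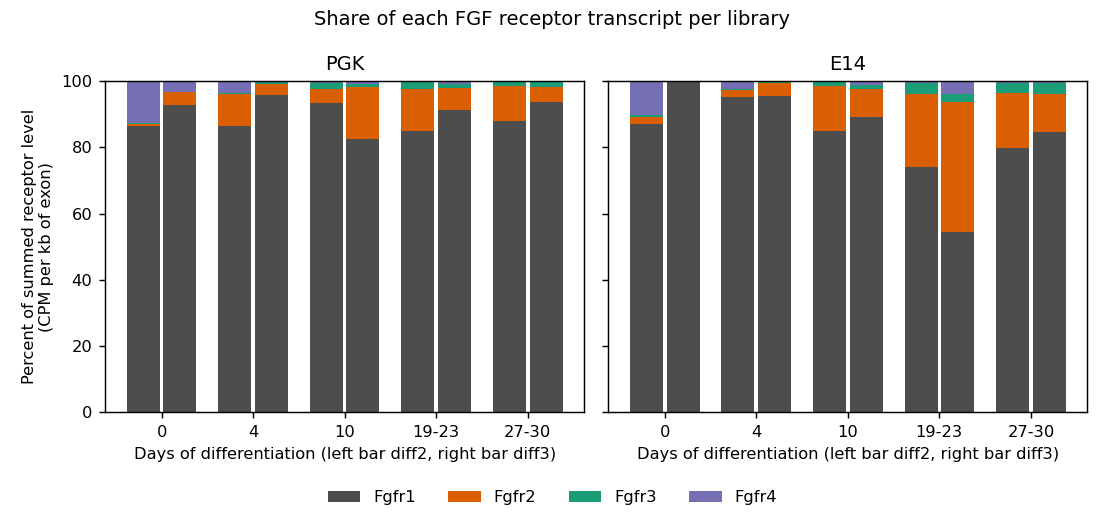
Stacked bars of each receptor's percent of the summed CPM per kilobase of exon, with 2 bars per stage (left diff2, right diff3), PGK on the left and E14 on the right. Fgfr1, in dark grey, fills most of every bar and is lowest in the E14 diff3 library of days 19 to 23, at 54.3%.

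Over the 9 genes, the calls in each comparison were as follows. At day 4 against day 0 in PGK, 3 of the 9 genes were higher (Fgf5, Fgf8 and Fgf15) and 0 lower, where 8.35% of the 15284 genes tested were higher and 6.44% lower. In E14 3 were higher (Fgf5, Fgf8 and Fgf15) and 1 lower (Fgf4), where 5.16% of 14501 genes were higher and 4.4% lower. At days 27 to 30 against day 0 in PGK, 4 were higher and 1 lower, where 13% of genes were higher and 12% lower. In E14 5 were higher and 1 lower, where 8.73% were higher and 4.99% lower. The median log2 fold change of the members was 2.13 in PGK and 4.32 in E14 in this last comparison, and that of all genes tested was −0.06 and 0.19. For days 10 to 30 against day 4 over both lines, 3 members were higher and 1 lower, where 6.14% of 15732 genes were higher and 4.98% lower.

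Between neighbouring stages after day 4 no member passed. Day 10 against day 4 called 1.51% of genes in PGK and 0.186% in E14, and 0 members, although 3 members in PGK and 4 in E14 had an unadjusted p under 0.05. In PGK, Fgf5 and Fgf8 rose in this step in DESeq2 (adjusted p = 0.0182 and 0.00572), and in E14 DESeq2 called Fgf4 lower (0.0162) and Fgfr2 higher (0.00239). The later steps called 0% of genes in either line by edgeR, and 0 members by DESeq2. In them 0 members had an unadjusted p under 0.05 in PGK, and 1 did in each step in E14, Fgf4 both times (−0.89, SE 0.39, and 0.85, SE 0.38). The genes with an unadjusted p under 0.05 numbered 208 and 231 in PGK and 938 and 106 in E14.

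**Figure D4:**
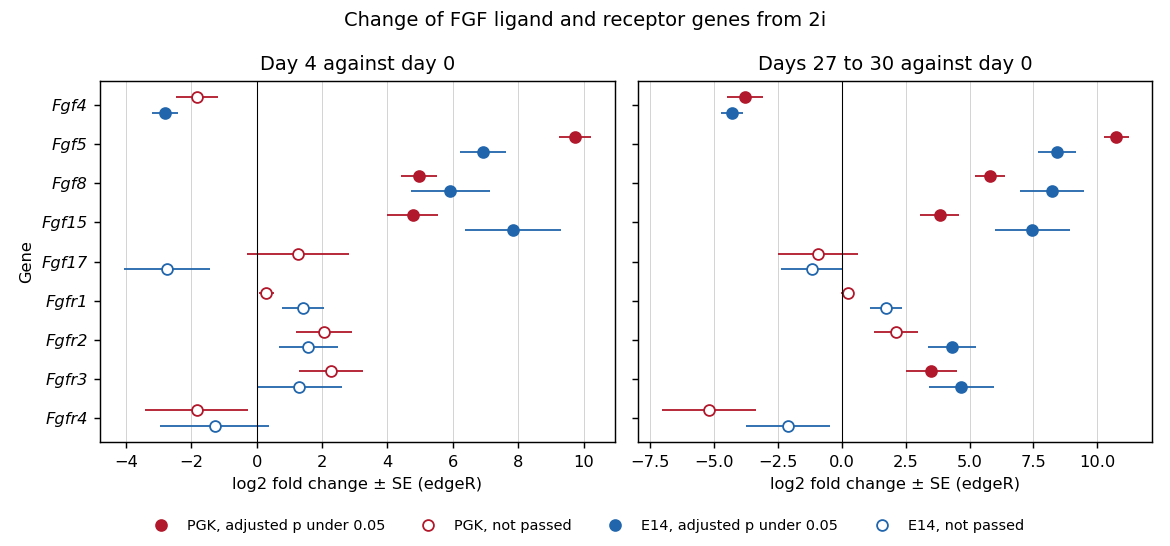
Log2 fold change with its SE (edgeR) of the 9 genes at day 4 against day 0 (left) and days 27 to 30 against day 0 (right), PGK in red above E14 in blue. Filled points have an adjusted p under 0.05. Fgf5, Fgf8 and Fgf15 are filled and positive in all 4 sets, and the E14 points of Fgf8 and Fgf15 rest on 2 and 3 counts at day 0, so their position depends on the fit.

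PGK and E14 were set against each other to ask whether the female and the male line differ. By edgeR no member passed at day 0 (0.509% of genes called), at day 4 (0.165%) or at days 10 to 30 (0.318%). The members with an unadjusted p under 0.05 were 2, 2 and 1 at these stages, and DESeq2 called 1, 0 and 0. At day 0 Fgfr1 had 217 and 174 CPM in PGK and 95.9 and 17.5 CPM in E14, without overlap, and a log2 fold change of 1.80 (SE 0.51, adjusted p = 0.139). It passed with a term for the library code (1.98, adjusted p = 0.038) and in DESeq2 (1.81, adjusted p = 0.0192). Without the E14 day 0 library of diff2 it was 3.61 (adjusted p = 4.97e-05), which sets PGK against that 1 shallow library. At days 10 to 30 the values ranged over the 9 genes between −1.41 for Fgfr4 (SE 1.01) and 0.78 for Fgf8 (SE 0.38).

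Whether the response to differentiation differed between the lines was tested as an interaction. No member passed for day 4 against day 0, where 0.0763% of genes were called, or for days 27 to 30 against day 0, where 0.0509% were called by edgeR. The members with an unadjusted p under 0.05 were 1 and 2, and DESeq2 called 0 both times. Fgf5 had the smallest unadjusted p at both times. The PGK change exceeded the E14 change by 2.85 at day 4 (SE 0.90, adjusted p = 0.397) and by 2.36 at days 27 to 30 (SE 0.90, adjusted p = 0.655), and its level at day 0 was 0 to 1.34 CPM in all 4 libraries. For Fgfr1 the difference at days 27 to 30 was −1.47 (SE 0.70, adjusted p = 0.782), and −3.29 (adjusted p = 0.000466) without the E14 day 0 library of diff2, where the same shallow library is the whole of day 0 in E14.

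Of 17 other FGF ligand genes in the tables, 10 passed the filter in PGK and 12 in E14. In PGK 2 were higher and 1 lower at day 4 and 3 higher at days 27 to 30, and in E14 1 was higher and 1 lower at each time. The shares of all genes tested that were higher and lower were 8.35% and 6.44% at day 4 and 13% and 12% at days 27 to 30 in PGK, and 5.16% and 4.4%, then 8.73% and 4.99%, in E14. Fgf10, a mesenchymal ligand of Fgfr2, had 0.140 and 2.10 CPM at day 4 against 6.33 and 20.3 at day 0 in PGK, and 0.0736 and 0 against 4.70 and 20.4 in E14, and was called lower in both (adjusted p = 0.0357 and 0.00772). At days 27 to 30 it had 32.0 and 27.5 CPM in PGK and 49.4 and 22.0 in E14, and over both lines it was higher at days 10 to 30 than at day 4 (6.42, SE 0.91, adjusted p = 0.000227). The summed level of 10 fibroblast and feeder markers was 0 to 17.7 CPM at day 0, with Dcn and Twist2 at 0 in all day 0 libraries. It was 77.1 to 173 CPM at day 4, where Fgf10 was lower than at day 0. At days 10 to 30 it was 93.6 to 504 CPM. The part of these markers in the ligand levels was not tested. Fgf13, an intracellular member of the family, had 27.9 and 19.5 CPM at days 27 to 30 against 9.90 and 9.91 at day 0 in PGK, and was called higher (1.18, SE 0.37, adjusted p = 0.0406). Fgf14, of the same intracellular group, had 4.57 and 8.21 CPM at days 27 to 30 against 0 and 0.0935 at day 0 in PGK, and 7.55 and 7.29 against 0 and 0 in E14, and was called higher in both (adjusted p = 0.00375 and 0.00766). Of the other ligands that reached a mean of 1 CPM, Fgf16 was at 0 in all libraries of days 0 and 4 and peaked at 1.71 and 8.74 CPM in E14 at days 19 to 23. Fgf1 peaked at 5.75 and 0.411 CPM in PGK at day 4, Fgf7 at 0.522 and 23.1 CPM in E14 at day 0, and Fgf21 at 1.91 and 0.495 CPM in E14 at day 4. Fgf2, the ligand supplied in the medium, had 0 to 3 counts per library.

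A list of feedback inhibitors and ETS-linked genes, many of them known to respond to ERK signalling, had 17 tested genes, of which 9 were higher and 0 lower at day 4 in PGK and 8 and 0 in E14. Over all genes tested at day 4, 8.35% were higher in PGK and 5.16% in E14. The list's counts at days 27 to 30 were 11 and 0 in PGK and 9 and 1 in E14, where 13% and 8.73% of all genes were higher. The other genes of the list did not pass. The list's median log2 fold change was 2.12 and 1.87 at day 4 in PGK and E14, and 2.19 in both at days 27 to 30, against −0.06 to 0.19 for all genes. Dusp6, the phosphatase that inactivates ERK, had 117 and 226 CPM at days 27 to 30 against 3.73 and 2.20 at day 0 in PGK, and 190 and 166 against 3.65 and 8.29 in E14. Egr1, an immediate early gene, rose by 7.09 at day 4 in PGK (SE 0.78, adjusted p = 0.000314) and by 7.92 in E14 (SE 0.86, adjusted p = 0.000721). Spred3, a Sprouty-related inhibitor, rose by 4.65 at days 27 to 30 in PGK (SE 0.38, adjusted p = 4.37e-05). The one lower gene was the ETS factor gene Etv5, at −1.08 in E14 (SE 0.31, adjusted p = 0.0437), which also was the only gene of the list called at days 10 to 30 against day 4 (−1.27, SE 0.16, adjusted p = 7.91e-05).

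Of 19 cytoplasmic relay genes, which carry the signal between receptor and nucleus, 1 was higher and 0 lower at day 4 in PGK and 1 and 1 in E14, and 3 and 4 were called at days 27 to 30 in PGK and 1 and 2 in E14. Of all genes tested, 8.35% were higher and 6.44% lower at day 4 in PGK, and 5.16% and 4.4% in E14. At days 27 to 30 these shares were 13% and 12% in PGK, and 8.73% and 4.99% in E14. The adaptor Gab1 was lower at days 27 to 30 in PGK (−2.29, SE 0.25, adjusted p = 0.000179) and in E14 (−2.23, SE 0.49, adjusted p = 0.0153). Of the co-receptors, binding proteins and decoy, 4 of 9 were higher and 1 lower at days 27 to 30 in PGK and 4 of 6 higher in E14, against the same shares of all genes. Fgfbp1, a carrier that releases FGFs from matrix, had 89.1 and 80.1 CPM at days 27 to 30 against 1.06 and 5.19 at day 0 in PGK, and 72.1 and 49.1 against 2.01 and 0 in E14. Il17rd, an FGF signalling inhibitor, is a member of this list and of the feedback list. It rose by 2.35 in PGK (SE 0.31, adjusted p = 0.000493).

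The heparan sulfate genes build and trim the chains that hold ligand and receptor together. At days 27 to 30, 8 of 24 were higher and 4 lower in PGK, where 13% of all genes were higher and 12% lower. In E14 6 of 22 were higher and 2 lower, where 8.73% of all genes were higher and 4.99% lower. The other genes of the list did not pass. Hs6st2, a 6-O-sulfotransferase, had 23.8 and 30.4 CPM at days 27 to 30 against 0.244 and 0.140 at day 0 in PGK, and 16.8 and 24.1 against 0.149 and 0 in E14. Hs6st1, which encodes another enzyme of that type, fell in PGK (−1.62, SE 0.49, adjusted p = 0.0353) and in E14 (−1.59, SE 0.37, adjusted p = 0.0194). The sulfatase gene Sulf1 rose by 4.06 in PGK (SE 0.28, adjusted p = 2.19e-05), and the core protein genes Gpc1 and Sdc4 changed in opposite directions there (2.86, SE 0.24, adjusted p = 5.34e-05, and −2.17, SE 0.37, adjusted p = 0.00241).

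**Figure D5:**
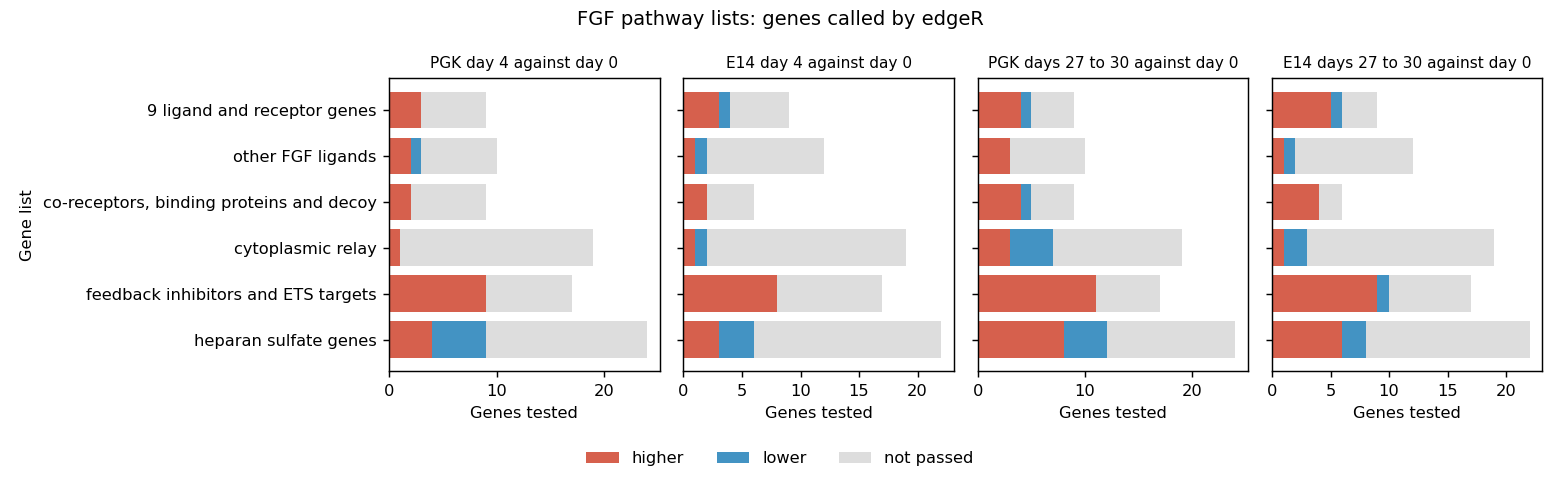
Number of genes tested in each list, split into higher (red), lower (blue) and not passed (grey) by edgeR, for PGK and E14 at day 4 and at days 27 to 30 against day 0. In the feedback list 9 of 17 genes are higher at day 4 in PGK and 8 of 17 in E14, while the relay list has 1 higher in each line.

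Genes with profiles closest to each member were found by the mean absolute difference of centred log2(CPM + 0.25) over the 20 libraries, among 14524 candidates. Fgf4 was nearest to Mybl2 (0.31), Rpp25 (0.35) and Adap1 (0.49), where the median candidate differed by 1.58. Fgf5 was nearest to Zfp608 (0.61), Chst15 (0.66) and Car4 (0.69), with a median of 2.82. Fgf8 was nearest to Spry4 (0.58), a Sprouty gene of the feedback list, followed by Ppp1r14c (0.61) and Tmem200a (0.68), with a median of 2.04. Fgf15 was nearest to Fam131b (0.57), Bcl11b (0.62) and Bcl11a (0.63), with a median of 1.78. Fgf17 was nearest to Lrrc14b (0.77), C2cd2l (0.80) and Lrrc33 (0.81), with a median of 1.23. Among the receptors, Fgfr1 was nearest to Plekha2 (0.30), Fam216a (0.30) and Rgs12 (0.31), where the median candidate differed by only 0.75. Fgfr2 was nearest to Slc22a23 (0.51), Sepp1 (0.62) and Prnp (0.65), with a median of 1.56. Fgfr3 was nearest to Stx11 (0.41), Serpinh1 (0.46) and Tmem178 (0.46), with a median of 1.22. Fgfr4 was nearest to Zfp273 (0.58), Cfp (0.62) and Itgae (0.63), with a median of 1.26. The libraries share line, stage and experiment, so these distances are a description.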

How the data were processed

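Polyadenylated RNA of 20 libraries was sequenced. Per the submitters' processing notes, CASAVA 1.8.2, GRCm38 (mm10), Cuffdiff and DESeq2 were used, with no role stated; aligner, gene annotation and strand setting of the counting step are not given in the sources used. The raw counts per gene deposited by the authors, 1 table per line, were analysed; the deposited normalized and variance-stabilized tables were not used. CPM is the count divided by the library total. Counts were tested in R 4.3.3 with edgeR 4.0.16 (TMM, filterByExpr with a minimum count of 10, robust quasi-likelihood fit, Benjamini-Hochberg adjustment over all genes, threshold 0.05). Each line's 10 libraries were fitted together (15284 genes in PGK, 14501 in E14), and all 20 jointly (15732 genes) for the line comparisons and for days 10 to 30 against day 4; 16 comparisons were made. Fits were checked on simulated data in which libraries varied less than here and only genes with many counts were changed. That check does not cover members with few counts. Lengths are unions of GENCODE exons on GRCm38.

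Alternatives were other size factors, no low-count filter, the experiment as a block, a term for the library code, DESeq2 1.42.0, the joint fit and each library left out; leaving out both shallow E14 libraries was chosen after seeing the data. The members and lists were chosen with earlier results of these data known. Named genes were the members, up to 3 called genes per list and comparison with the smallest adjusted p, ligands reaching 1 CPM, and the 3 nearest profiles; Fgf2 and Etv5 are named in addition, chosen after their values were seen. The experiment name in the labels pairs libraries: within a line, the differences between experiments correlated at 0.39 to 0.48 (PGK) and 0.145 to 0.227 (E14) among days 0, 4 and 10, which also share the library code, and at −0.213 to 0.098 for all other pairs of stages.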

Additional observations from a re-analysis of the deposited data

Results flagged for a closer look

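Fgf17 CPM moved in opposite directions in the lines in 2 steps, but by very little in the E14 diff2 libraries. At day 10 against day 4 both PGK experiments had lower CPM and both E14 experiments higher CPM, and the PGK minus E14 difference in log2 fold change was −3.94. At days 27 to 30 against days 19 to 23 the level was again lower in PGK and higher in E14, with a difference of −2.70. In E14 diff2 the levels were 2.06 and 2.41 CPM in the first step (28 and 29 counts). They were 2.82 and 2.98 CPM in the second (76 and 62 counts). The E14 diff3 library of day 4 and the PGK diff3 library of days 27 to 30 held 0 counts. The differences of −3.94 and −2.70 were not tested, and the counts behind them were low, at 0 to 330 per library.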

How the results depend on the processing

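Of 190 counts of members called under an alternative, 176 stayed within 1.5 times the count reported and 14 did not, and of 311 member log2 fold changes called as reported or under the alternative none reversed, 26 lost and 33 gained a call. Among uncalled values, Fgf15 in PGK against E14 at days 10 to 30 was 0.01 and became −0.01 with other size factors. With DESeq2 the members called were 5 for PGK day 4 against day 0 (3 by edgeR), 2 for PGK day 10 against day 4 and 2 for the same step in E14 (0 each), and 1 for PGK against E14 at day 0 (0). Without the low-count filter, or with a term for the library code, 2 were called for PGK day 10 against day 4, and with that term 1 at day 0 between lines. Leaving out 1 library gave 0 to 1 for PGK day 10 against day 4, for the lines at day 0 and for both line differences, and 1 to 5 for days 10 to 30 against day 4 (4 reported; 1 without the PGK day 4 library of diff2, 2 without the E14 day 4 library of diff3). Without both shallow E14 libraries 2 were called for E14 day 4 against day 0 (4 reported). The causes were not tested. Over the longest transcript, shares were 0.357% for Fgfr4 in PGK at day 10 and 0.322% in E14 at days 27 to 30, and 0.374%, 0.913% and 2.64% for Fgfr3 in E14 at days 4, 10 and 27 to 30. With the replicate block (the experiment), Fgf4 at day 4 (−2.03) and Fgfr4 at days 27 to 30 (−5.34) gained a call in PGK, and Fgfr3 lost it in E14 (4.75) and at days 10 to 30 (2.15); no other member's call changed. Depth limits Fgfr3, Fgfr4, Fgf17 and the levels at days 0 and 4 in E14 diff3, most where counts were few.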
